A study of Mus musculus with 2 samples.

Results

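The 7 genes described here, Pitx1, Six6, Lhx3, Lhx4, Isl1, Lhx2 and Hesx1, encode homeodomain transcription factors of the pituitary, and were taken by symbol from the 31055 features of the count matrices, where each symbol had 1 row. The 2 single-cell libraries, 1 male and 1 female, hold GFP-positive cells sorted from pituitaries of Sox9iresGFP/+ mice at postnatal day 3. These mice carry GFP behind an internal ribosome entry site at the endogenous Sox9 locus, so the sort takes Sox9-expressing cells and those of their descendants that still hold GFP, and is not a sample of the whole gland. The study's methods give 3 pooled pituitaries for each library, so there is no replicate and no p-value in what follows, and sex cannot be told apart from the pool, the sort and the library.

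PITX1 is a bicoid-type homeodomain factor present from the earliest pituitary primordium, which it helps to keep. LHX3, LHX4, ISL1 and LHX2 are LIM-homeodomain factors, which bind DNA with the help of LDB cofactors. LHX3 and LHX4 are needed for the growth of Rathke's pouch, the origin of the anterior and intermediate lobes, ISL1 marks early pouch cells and later gonadotrophs and thyrotrophs, and LHX2 acts in the neural tissue that forms the posterior lobe. HESX1 is a repressor that recruits TLE proteins and is silenced as the pouch differentiates, and SIX6 is a repressor related to SIX3, with roles in the eye, the hypothalamus and pituitary progenitors.

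Cells were placed in classes by raw unique molecular identifiers (UMIs) of marker genes, none of them a member. Stem cells had at least 2 UMIs of Sox2, at least 1 of Sox9 and none of Lef1, differentiating cells had at least 2 of Lef1, and gonadotrophs, Pou1f1-lineage cells, melanotrophs, pituicyte-like and mesenchymal cells passed gates on their own markers, which the processing section spells out. In the male library 10410 cells were kept at a median of 8902 UMIs, and in the female library 5711 at 9789. The male and female counts were 1825 and 1861 stem cells, 873 and 601 differentiating cells, 507 and 47 gonadotrophs, 752 and 278 Pou1f1-lineage cells, 264 and 117 melanotrophs, and 671 and 329 mesenchymal cells. The gates left 52.1% of male and 43.2% of female cells unassigned, and 78 and 10 cells that passed more than 1 terminal gate were set aside. Of marker genes kept out of the gates, all 4 of the differentiating and all 3 of the melanotroph class were highest in their own class in both libraries, as were 2 of 3 gonadotroph, 3 of 5 stem and, in the male and female library, 4 and 5 of 5 Pou1f1-lineage markers. Fxyd1 and S100b, listed for stem cells, and Gata2, listed for gonadotrophs, were highest in mesenchymal cells. The 4 markers tried on mesenchymal cells were highest there too, but Lum among them was part of that gate. The pituicyte-like class was left out of all these rankings, and its gate is taken up with its cells. The libraries shared 19 cell barcodes.

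Levels are UMIs of a gene summed over the cells of a class, per 1000000 UMIs of those cells (CPM), with an exact Poisson 95% interval that covers counting error only. Since reads of this kind come from one end of the transcript, levels are compared within a gene and not between genes. A ratio of a class to stem cells was taken within each library with an exact conditional 95% interval, and was called when it was at least 2, or at most 0.5, with an interval that left out 1, in both libraries and in the same direction. Background shares give how many of all features with at least 20 UMIs in the pair of classes, in each library, met the same rule.

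Over all deposited barcodes Six6 had 44366 UMIs in the male library and 28890 in the female one, Pitx1 25930 and 13564, Isl1 15987 and 7317, and Lhx3 14006 and 8076. The other 3 members were close to absent, with 118 and 107 UMIs of Hesx1, 98 and 24 of Lhx2, and 96 and 18 of Lhx4. Pitx1, Six6, Lhx3 and Isl1 therefore carry most of the description.

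**Figure D1:**
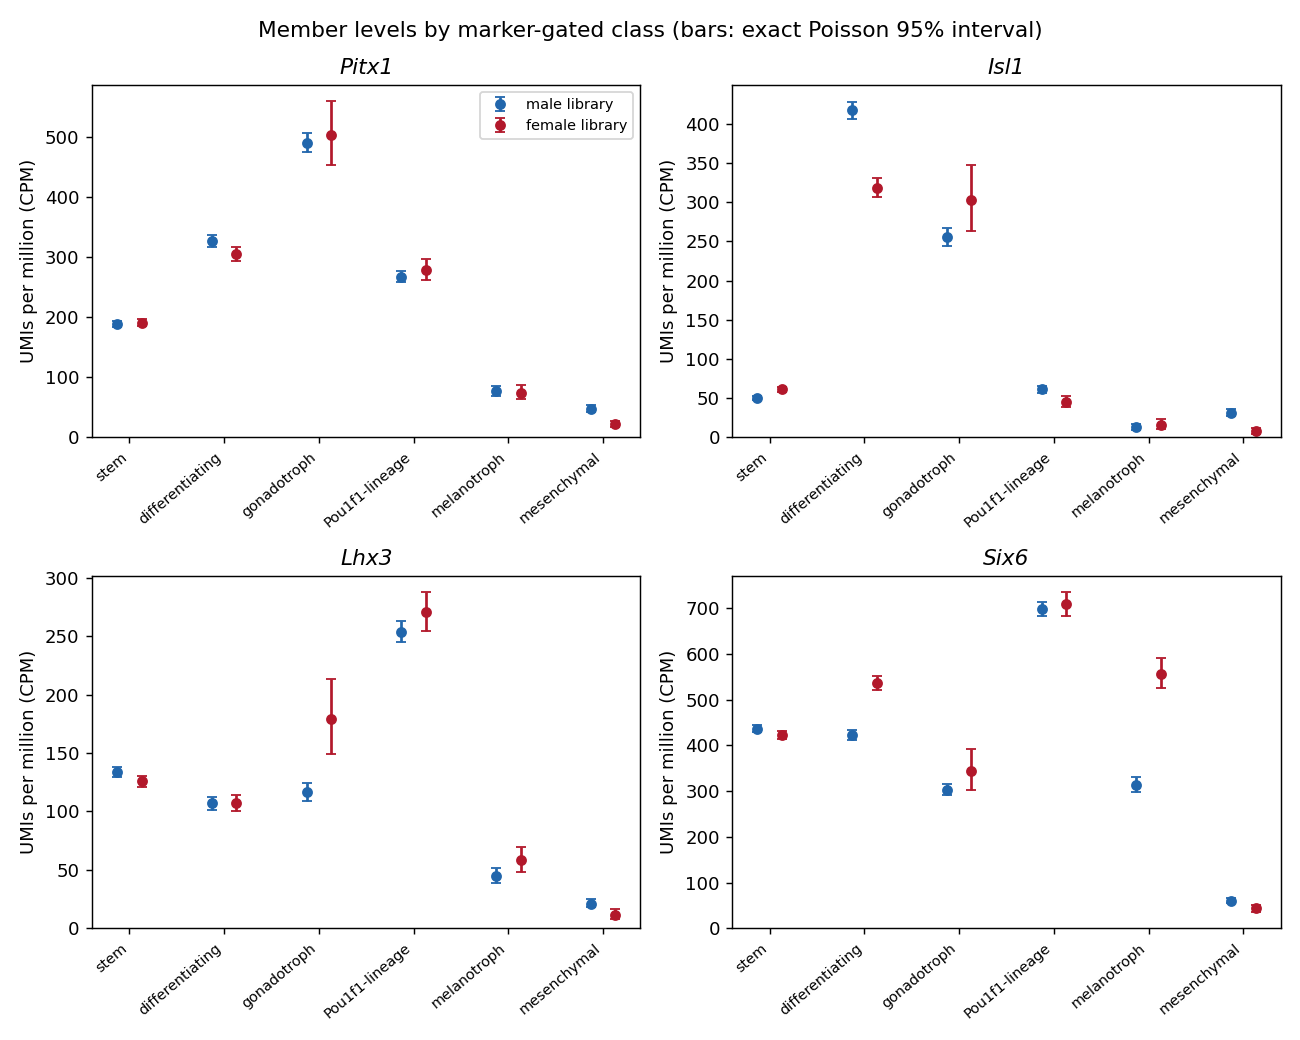
Level of Pitx1, Isl1, Lhx3 and Six6 (CPM, vertical axis from 0) in 6 marker-gated classes, with the male library in blue and the female library in red; points are UMIs summed over a class and bars are exact Poisson 95% intervals. Pitx1 is highest in gonadotrophs, Isl1 in differentiating cells and gonadotrophs, and Lhx3 and Six6 in Pou1f1-lineage cells, in both libraries.

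Pitx1, on chromosome 13 (GRCm38, 55825051 to 55836192, minus strand), was present in every epithelial class and rose towards the gonadotrophs. Its level in stem cells was 188 CPM (95% interval 183 to 193) in the male library and 190.5 (185 to 196) in the female. In differentiating cells it stood at 327 and 305 CPM, in gonadotrophs at 490.4 (475 to 506) and 504 (453 to 559), and in Pou1f1-lineage cells at 267 and 279 CPM. Melanotrophs held 77.1 and 74.7 CPM and mesenchymal cells 48.2 and 21.8. In both libraries the order was gonadotroph, differentiating, Pou1f1-lineage, stem, melanotroph and mesenchymal, and only the intervals of differentiating and Pou1f1-lineage cells in the female library overlapped among neighbours. Gonadotrophs held 2.61 times the stem level in the male library (2.5 to 2.72) and 2.64 times in the female (2.36 to 2.95), while the ratios of differentiating cells, 1.74 and 1.60, and of Pou1f1-lineage cells, 1.42 and 1.46, lay above 1 but under the fold set. Under gates with every threshold raised, which left 106 and 6 gonadotrophs, the male ratio was 1.89 and the call was lost.

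Isl1, on chromosome 13 (116298281 to 116309689, minus strand), had the widest range over the 6 classes of the 4 abundant members. The level in stem cells was 50.7 CPM (48.1 to 53.4) in the male library and 61.3 (58.0 to 64.7) in the female. Differentiating cells reached 417 (406 to 429) and 319 (307 to 331) CPM and gonadotrophs 256 (245 to 268) and 303 (264 to 347). Every differentiating and gonadotroph value lay far above every stem value, at 8.23 and 5.20 times stem for differentiating cells and at 5.05 and 4.95 times for gonadotrophs. In Pou1f1-lineage cells, where TSH-producing thyrotrophs are known to use ISL1, the level was 61.3 and 45.8 CPM, near that of stem cells. Melanotrophs, at 12.99 and 16.5 CPM, fell to 0.256 and 0.269 of the stem level.

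Lhx3, on chromosome 2 (26200212 to 26208289, minus strand), and Six6, on chromosome 12 (72939892 to 72944899, plus strand), were both highest in Pou1f1-lineage cells, the precursors and producers of growth hormone, prolactin and TSH. Lhx3 stood at 134 (129 to 138) and 126 (121 to 131) CPM in male and female stem cells and at 254 (245 to 263) and 271 (255 to 288) in Pou1f1-lineage cells. Six6 stood at 436 (429 to 444) and 424 (415 to 432) CPM in stem cells and at 699 (684 to 715) and 710 (683 to 737) in Pou1f1-lineage cells. Within each library the stem and Pou1f1-lineage intervals, which cover counting error only, were apart for both genes, but neither gene was called. No share of all features with intervals apart is given. The Lhx3 ratio was 1.90 (1.81 to 1.997) in the male library and 2.16 (2.01 to 2.32) in the female, so the male value missed the fold of 2, and it passed in both when cells were thinned to an equal depth (2.16 and 2.29) or weighted equally (2.03 and 2.37). For Six6 the ratios were 1.60 (1.56 to 1.65) and 1.68 (1.61 to 1.75). In differentiating cells Lhx3 was a little below stem, at 107 CPM in both libraries, and Six6 was 423 CPM in the male library and 536 in the female, on either side of the stem level. Gonadotrophs held less Six6 than stem cells, 303 and 345 CPM, and their Lhx3 was 116 CPM in the male library and 179 in the female, below and above stem.

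The starts of 4 members are shown. Lhx3 and Six6 peak in one class and Isl1 in another, and Hesx1 differs from them in base composition. RefSeq starts on GRCm38.p6 were found for 6 of the 7 members, without Pitx1. The sequences run 5′ to 3′ along the strand of the gene, beginning 250 bases before the start, and leave out bases inside annotated exons of the gene. Capitals mark TAATCC, the core bound by PITX factors, or TATAAA, the TATA box, each searched on both strands with TAATTA, a LIM-homeodomain core, and CTTTGA, a TCF/LEF core. Lhx3 (minus strand, chr2:26208290-26208499), Six6 (plus strand, chr12:72939632-72939881), Isl1 (minus strand, chr13:116309690-116309938) and Hesx1 (plus strand, chr14:27000112-27000361) follow.
Lhx3: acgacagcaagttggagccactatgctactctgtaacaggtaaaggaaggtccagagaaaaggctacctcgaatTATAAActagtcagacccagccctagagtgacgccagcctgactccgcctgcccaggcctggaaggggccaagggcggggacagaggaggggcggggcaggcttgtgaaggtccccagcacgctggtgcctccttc
Six6: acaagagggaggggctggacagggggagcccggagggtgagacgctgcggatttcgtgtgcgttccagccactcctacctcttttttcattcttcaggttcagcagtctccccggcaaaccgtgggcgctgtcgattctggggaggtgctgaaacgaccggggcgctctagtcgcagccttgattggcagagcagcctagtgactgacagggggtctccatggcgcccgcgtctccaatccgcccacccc
Isl1: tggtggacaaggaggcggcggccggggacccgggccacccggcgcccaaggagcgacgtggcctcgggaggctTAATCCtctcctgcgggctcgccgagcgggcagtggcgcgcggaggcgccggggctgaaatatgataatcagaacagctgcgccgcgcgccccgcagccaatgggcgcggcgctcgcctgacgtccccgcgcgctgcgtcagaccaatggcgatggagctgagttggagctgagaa
Hesx1: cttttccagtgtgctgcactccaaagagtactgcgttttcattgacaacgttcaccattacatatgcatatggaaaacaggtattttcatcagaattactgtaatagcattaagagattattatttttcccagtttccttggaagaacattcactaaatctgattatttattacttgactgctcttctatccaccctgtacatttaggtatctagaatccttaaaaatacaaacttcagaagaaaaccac

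In the Isl1 sequence TAATCC lies 177 to 172 bases before the start, a core that 6.25% of 32851 promoter windows hold. The Lhx3 sequence holds TATAAA at 176 to 171 bases, found in 12.4% of windows, and a second Lhx3 start, inside the gene, holds none of the 4 motifs. CTTTGA, in 13.8% of windows, occurred on the minus strand 59 to 54 bases before the Lhx4 start, and TAATTA, in 4.84%, in none of the members' windows. These matches are a description of letters and no evidence of binding. The 250 bases before the Hesx1 start hold 34.0% G and C and 2 CG dinucleotides, against 62.8% and 17 for Six6, 71.2% and 33 for Isl1, 62.0% and 11 for Lhx3, and medians of 52.4% and 6 over all windows. Lhx2 and Lhx4, also close to absent, had windows rich in G and C, at 72.8% and 25 (start at 38339281) and 66% and 14. The Hesx1 start, at 27000362, lies inside the annotated gene, which begins at 26994416, and so does the Lhx4 start. The Six6 and Isl1 starts lie at the edge of their genes.

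Hesx1, on chromosome 14 (26994416 to 27002329, plus strand), was at very low levels in every class, with most of its class UMIs in stem cells. Stem cells held 47 UMIs in the male library and 57 in the female, or 1.64 and 2.65 CPM, and were also the class with the most UMIs of all genes. Cells that no gate took held 42 and 41 Hesx1 UMIs, or 1.34 and 1.77 CPM. Differentiating cells held 1 UMI in each library, which gave ratios of 0.0458 (0.00114 to 0.268) and 0.0450 (0.00112 to 0.261). Melanotrophs held none, at least 2.61-fold lower than stem cells in the male and at least 1.82-fold lower in the female library when set at 3 UMIs per library. Gonadotrophs held 11 and 2 UMIs and Pou1f1-lineage cells 12 and 2, with intervals that include the stem level in every case except the female Pou1f1-lineage cells. The 2 UMIs of the female gonadotrophs gave 2.86 CPM (0.347 to 10.3), above the female stem value and not set apart from it. With cells thinned to 5000 UMIs, 0.805% of male and 0.929% of female stem cells held a Hesx1 UMI, against 0.183% and 0.671% of mesenchymal cells. The intervals in stem cells, 0.441% to 1.35% and 0.542% to 1.48%, overlapped those of mesenchymal cells in both libraries. In differentiating cells, which were deeper than stem cells, it was seen in 0 of 854 male and 0 of 598 female thinned cells. A floor of 3 cells there would be 0.351% and 0.502%. The unthinned shares in stem cells were 2.36% and 2.53%.

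Lhx4, on chromosome 1 (155698031 to 155751684, minus strand), the close relative of Lhx3, gave no readable pattern at this depth. Its 20 male and 5 female UMIs in stem cells correspond to 0.698 and 0.232 CPM, and the highest class value was 1.94 CPM, from 15 UMIs in male gonadotrophs, where the female library had 0 UMIs and a floor of 4.29 CPM. Lhx2, on chromosome 2 (38339281 to 38369733, plus strand), was at 0.594 and 0.464 CPM in stem cells, from 17 and 10 UMIs, and at no more than 1.04 CPM in the other 5 classes named so far.

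The pituicyte-like gate, at least 2 of Rax, Nkx2-1, Col25a1 and Scn7a, markers of the glia of the posterior lobe, took 16 male cells and 1 female cell. Of 4 markers kept out of that gate, Slc1a3 and Gja1 were highest in these cells in the male library, and Vcan and Hopx were not. Lhx2 had 44 UMIs in the 16 cells, 163 CPM, which was 275 times the male stem level (154 to 513). The gate mixed cells of different kinds. The 11 cells with a Nkx2-1 UMI held 43 of the Lhx2 UMIs, seen in 10 of them, and 4 Pitx1 UMIs, all in 1 cell, whereas the 5 cells without Nkx2-1 held 1 Lhx2 UMI and 30 Pitx1 UMIs, with 2 to 10 in every cell. Among the 9 cells with 2 or more Nkx2-1 UMIs and no other terminal gate, each held 1 to 13 Lhx2 UMIs, and Six6 had 2 UMIs in 1 cell. Pitx1, Lhx3 and Isl1 were all at 0 in the 9 cells, with an exact Poisson upper limit of 33.3 CPM. With a further cell that also passed another terminal gate, the 10 cells held 7 Pitx1, 5 Lhx3, 4 Isl1 and 18 Six6 UMIs. Six3, a SIX-family gene of the forebrain outside the members, had 104 UMIs in the 9 cells and at least 4 in each, or 939 CPM. It was not particular to them. The 5 cells without Nkx2-1 held 45 Six3 UMIs, with 1 to 21 in each, or 375.5 CPM. In the female library no cell held a Nkx2-1 UMI. The gate by Nkx2-1 was added after the cells had been seen.

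**Figure D2:**
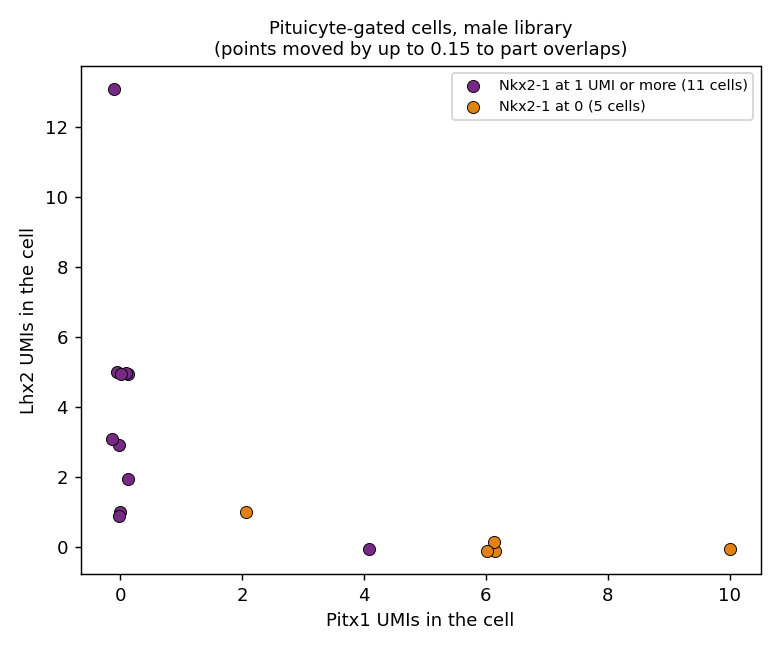
Lhx2 UMIs (vertical axis) against Pitx1 UMIs (horizontal axis) in each of the 16 male cells that passed the pituicyte-like gate, with 11 cells holding Nkx2-1 in purple and 5 without it in orange. Cells with Lhx2 at 2 or more UMIs all have Pitx1 at 0, and the 5 orange cells hold 2 to 10 Pitx1 UMIs.

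Against the background, 1 member was called higher and 1 lower in differentiating than in stem cells, Isl1 and Hesx1, where 5.82% of 13754 tested features were higher and 14.9% lower. In gonadotrophs 2 members, Pitx1 and Isl1, were called higher and 0 lower (background 7.71% and 9.49%), and in Pou1f1-lineage cells 0 were called in either direction (8.48% and 10.0%). For melanotrophs 0 members were higher (7.75%) and 4, Pitx1, Lhx3, Hesx1 and Isl1, were lower, where 16.9% of features were lower. Mesenchymal cells held 0 members higher (10.2%) and 3, Pitx1, Lhx3 and Six6, lower (13.4%), and Isl1 there was 0.628 of stem in the male library and 0.126 in the female. Of the 7 members 5 reached the minimum of 20 UMIs in each of these comparisons, the exceptions being Lhx2 and Lhx4.

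Melanotrophs, the Pomc-producing cells of the intermediate lobe, are read with a further value beside them. Pomc, Gh, Prl, Cga, Tshb, Lhb and Fshb took 26.0% of all UMIs in male and 13.1% in female melanotrophs, against 0.0803% and 0.0269% in stem cells, and the median log2 ratio to stem over all tested features was -0.45 and -0.21. With these 7 hormone genes left out of the totals, Pitx1 was 0.553 and 0.451 of stem and Lhx3 0.453 and 0.532, so that neither was below 0.5 in both libraries, and Isl1, at 0.346 and 0.310, was. Lhx3 was at 44.8 CPM in male and 58.2 in female melanotrophs. Six6 stood apart from the other members, at 314 (299 to 331) CPM in the male library and 557 (526 to 591) in the female, below stem at 0.720 (0.682 to 0.760) and above it at 1.32 (1.24 to 1.40). Without the hormone genes those Six6 ratios were 0.972 (0.921 to 1.03) and 1.51 (1.42 to 1.61). A further 25 male and 17 female cells rich in Pomc with Tbx19 but without Pax7, corticotroph-like, held 63.7 and 66.1 CPM of Isl1, and 209 and 163 of Pitx1.

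Mesenchymal cells, which are not of pouch origin, were the class set beside the others as background. Their levels were carried in large part by few cells. Scrublet, which scores cells for likeness to summed pairs, marked 90 of 671 male and 26 of 329 female mesenchymal cells, and without them Pitx1 was 9.62 and 3.89 CPM in place of 48.2 and 21.8, Isl1 4.51 and 2.33 in place of 31.9 and 7.72, Lhx3 10.99 and 3.50 in place of 21.2 and 11.7, and Six6 19.4 and 10.5 in place of 60.4 and 43.3. Isl1, then at 0.0972 and 0.0385 of the stem level, was called lower as well. The members were among the genes given to Scrublet, so a mesenchymal cell can be marked for holding their UMIs. The lower levels and the added call are therefore not independent of the marking. In stem cells the same step moved Pitx1 from 188 to 185 CPM and from 190.5 to 187.

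**Figure D3:**
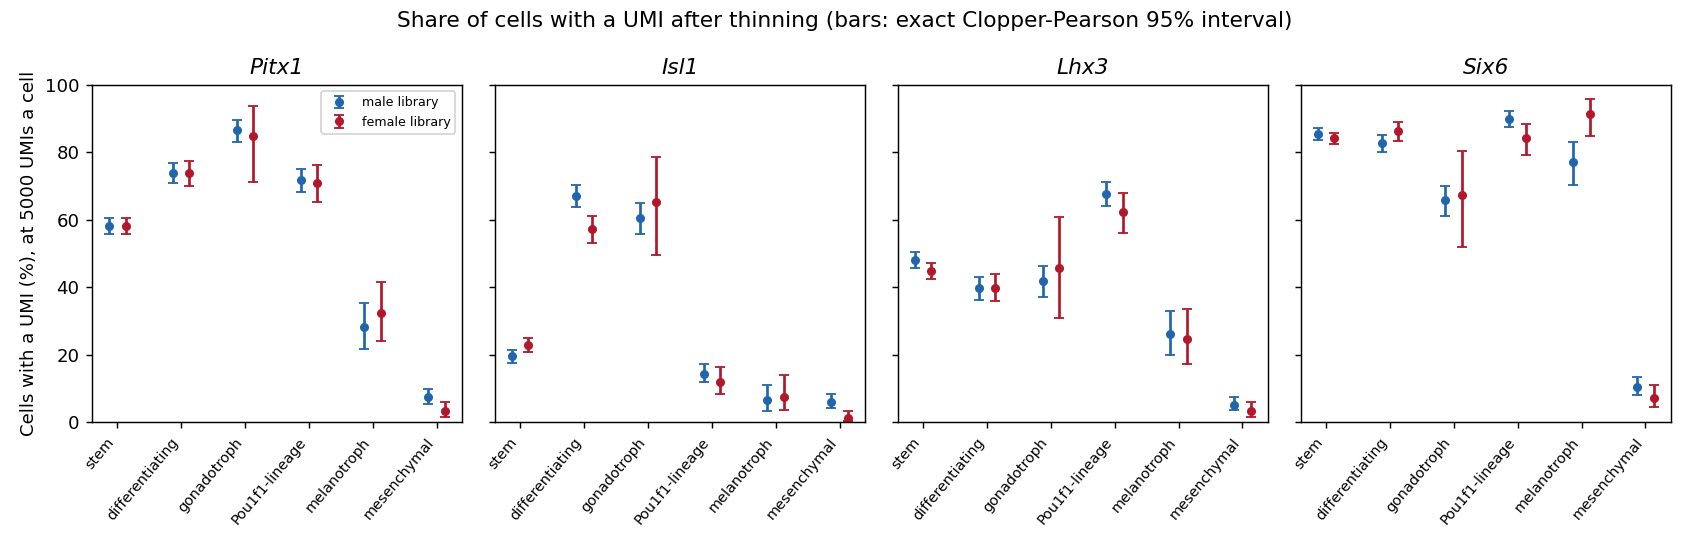
Share of cells with at least 1 UMI of Pitx1, Isl1, Lhx3 and Six6 (percent, vertical axis from 0 to 100) after each cell was thinned to 5000 UMIs, by class, male library in blue and female in red, with exact Clopper-Pearson 95% intervals. The mesenchymal shares, 1.34% to 10.6%, are the lowest plotted for each gene and library.

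At 5000 UMIs per cell Pitx1 was seen in 58.2% of stem cells in both libraries, in 86.7% of male and 84.8% of female gonadotrophs and in 7.50% and 3.36% of mesenchymal cells. Isl1 was seen in 19.6% and 22.9% of stem cells, 67.2% and 57.2% of differentiating cells, 60.4% and 65.2% of gonadotrophs, and 14.4% and 12.1% of Pou1f1-lineage cells. In melanotrophs its shares were 6.52% and 7.69%, against 6.03% and 1.34% in mesenchymal cells, and the male intervals overlapped. Without Scrublet-marked cells the Isl1 level was 10.2 and 16.7 CPM in melanotrophs, against 4.51 and 2.33 in mesenchymal cells. Lhx3 was seen in 48.0% and 44.8% of stem cells, 39.7% and 39.97% of differentiating cells, 67.8% and 62.3% of Pou1f1-lineage cells, 26.1% and 24.8% of melanotrophs and 5.30% and 3.36% of mesenchymal cells. The Six6 shares were 10.6% and 7.38% in mesenchymal cells, and in the other classes ran from 65.8% and 67.4% in gonadotrophs to 90.0% of male Pou1f1-lineage cells and 91.5% of female melanotrophs. Thinning left out 86 of 1825 male and 30 of 1861 female stem cells and 80 of 264 male and 0 of 117 female melanotrophs as too shallow. Median depths before thinning were 11742 and 9905 UMIs in stem and 8005 and 7930 in mesenchymal cells, and the unthinned stem shares were 82.6% and 80.8% for Pitx1 and 37.6% and 37.7% for Isl1. In Pou1f1-lineage cells Pitx1, Lhx3 and Six6 were seen together in 46.2% of male and 42.9% of female cells, against 24.1% and 22.7% of stem cells and 1.83% and 1.01% of mesenchymal cells.

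Within the stem cells Pitx1, Lhx3 and Six6 varied little, and Isl1 more. Ednrb-rich and Aldh1a2-rich cells, groups told apart by an endothelin receptor and a retinoic acid synthesising enzyme, held 189 and 188 CPM of Pitx1 in the male and 188 and 197 in the female library, and 0 members were called in either direction (background 1.01% higher and 0.447% lower). Isl1 differed most, at 56.7 against 38.6 CPM in the male and 74.6 against 35.6 in the female library, ratios of 1.47 (1.29 to 1.67) and 2.10 (1.79 to 2.47). Its shares at equal depth were 26.1% against 15.5% and 26.2% against 15.5%. Cycling stem cells, with at least 3 of 8 cell-cycle genes, and stem cells with none also differed in 0 members (4.63% and 0.383%), with Lhx3 at 133 against 135 CPM in the male library and 125 against 133 in the female. Isl1 in cycling cells was 0.835 (0.718 to 0.974) of the level in those with none in male and 1.24 (1.07 to 1.45) in female cells, on either side of 1.

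Differentiating cells were split by Cdkn1a, a cell-cycle inhibitor, and Shh, a secreted ligand. Isl1 rose from 173 and 170.0 CPM in early cells, with Cdkn1a and no Shh, to 651 and 598 in Shh-positive cells, ratios of 3.77 (3.36 to 4.24) and 3.52 (3.05 to 4.07), and was the only member of 4 tested that was called (background 1.49% higher, 1.44% lower). Early gonadotroph precursors, with Neurod1 and Cga but no Gnrhr or Lhb, held 559 and 573 CPM of Isl1, 3.24 and 3.37 times the early differentiating cells, again as the only called member (4.73% and 3.06%). Pitx1 rose beside it, to 512 and 466 CPM, with ratios of 2.19 and 1.69 that missed the fold in the female library. Of these precursors 113 male and 25 female cells also counted as differentiating. Gonadotrophs with Gnrhr or Lhb held 213 and 255 CPM of Isl1, 0.382 (0.357 to 0.407) and 0.444 (0.353 to 0.553) of the precursors, called lower (1.41% higher, 0.751% lower), while Pitx1 stood at 464 and 509 CPM. Lhx3 went from 154 to 104 CPM in male and from 119.5 to 190 in female cells. The female values rest on 90 precursors and 24 maturing cells.

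**Figure D4:**
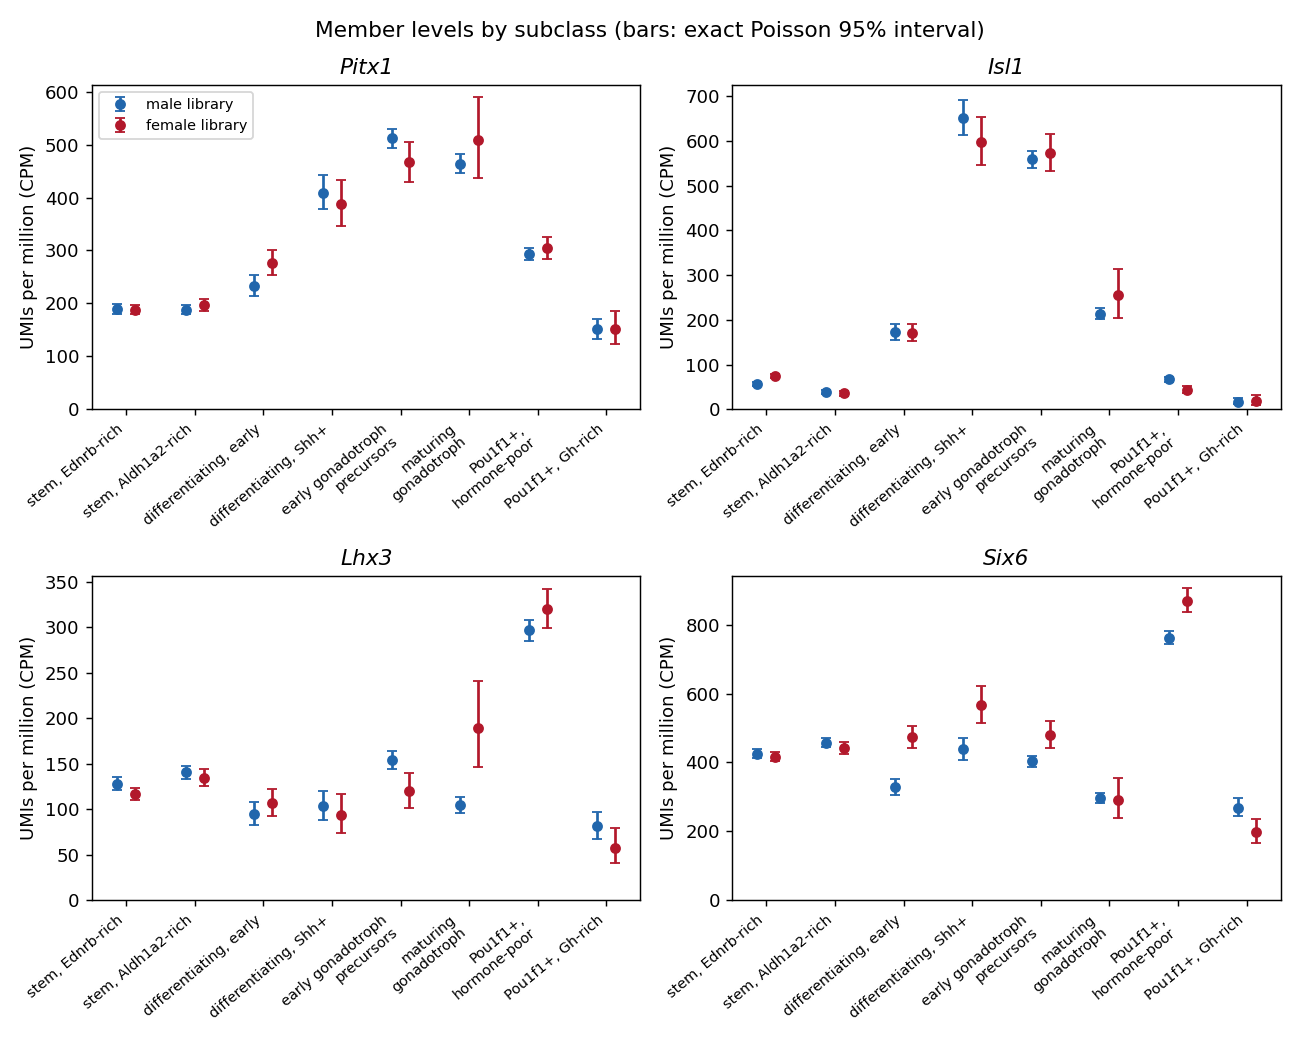
Level of Pitx1, Isl1, Lhx3 and Six6 (CPM, vertical axis from 0) in 8 subclasses, without Prl-rich cells, male library in blue and female in red, with exact Poisson 95% intervals. Isl1 peaks in Shh-positive differentiating cells and early gonadotroph precursors (559 to 651 CPM) and is lower in maturing gonadotrophs (213 and 255), while Pitx1 stays high, and of the 8 subclasses plotted hormone-poor Pou1f1-lineage cells hold the most Lhx3 and Six6.

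Isl1 rose with Lef1, a WNT effector, up to 7 Lef1 UMIs in Sox2-positive cells outside the terminal gates. With Lef1 at 0 UMIs Isl1 stood at 76.3 CPM in the male library and 71.8 in the female, at 1 UMI at 263 and 230, at 2 to 3 at 364 and 271, and at 4 to 7 at 473 and 390. Pitx1 went from 199.8 and 197 to 330 and 279 CPM over the same ranges, and Lhx3 from 138 and 131 down to 99.5 and 93.1. The female Pitx1 level was highest at 2 to 3 Lef1 UMIs, at 313.5 CPM. Median depth rose too, from 8879 to 15018 UMIs in the male and from 9123 to 14041 in the female library, and its part in these differences was not tested. Cells with 8 or more Lef1 UMIs numbered 28 and 12, with Isl1 at 444 (388 to 505) and 567 (469 to 680) CPM. In the male library that was not above the level at 4 to 7 UMIs.

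Among Pou1f1-lineage cells, those with abundant Gh held less Lhx3 and Six6 than hormone-poor cells. Hormone-poor cells, 609 male and 224 female, stood at 297 and 320.2 CPM of Lhx3 and 762.3 and 870.3 of Six6, and Gh-rich cells, 68 and 35, at 81.2 and 57.3 of Lhx3 and 269 and 198 of Six6. The ratios of Gh-rich to hormone-poor cells were 0.273 and 0.179 for Lhx3, 0.353 and 0.228 for Six6, 0.254 and 0.420 for Isl1 and 0.514 and 0.498 for Pitx1, so that 3 members of 4 tested were called lower, where 2.26% of 10193 features were lower and 1.98% higher. Hormone transcripts took 14.9% and 22.0% of the UMIs of Gh-rich cells, and the median log2 ratio over all tested features was -0.21 and -0.31. With the hormone genes left out of the totals, Lhx3 was 0.321 and 0.229, Six6 0.414 and 0.292, Pitx1 0.603 and 0.639, and Isl1 0.298 and 0.538, the last no longer under 0.5 in the female library. Split by Gh alone, cells with 200 or more Gh UMIs held 230.1 CPM of Six6 in the male library and 65.0 in the female, while cells with 3 to 19 held 639 and 605. The range between, from 20 to below 200 Gh UMIs, had 15 and 5 cells. Prl-rich cells, 51 male and 5 female, held 962 (896 to 1031) and 767 (580 to 996) CPM of Six6, above the hormone-poor level in the male library and within counting error of it in the female. Their Lhx3 was 191 (162 to 223) and 356 (233 to 522) CPM, below the hormone-poor level in the male library and within counting error of it in the female.

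**Figure D5:**
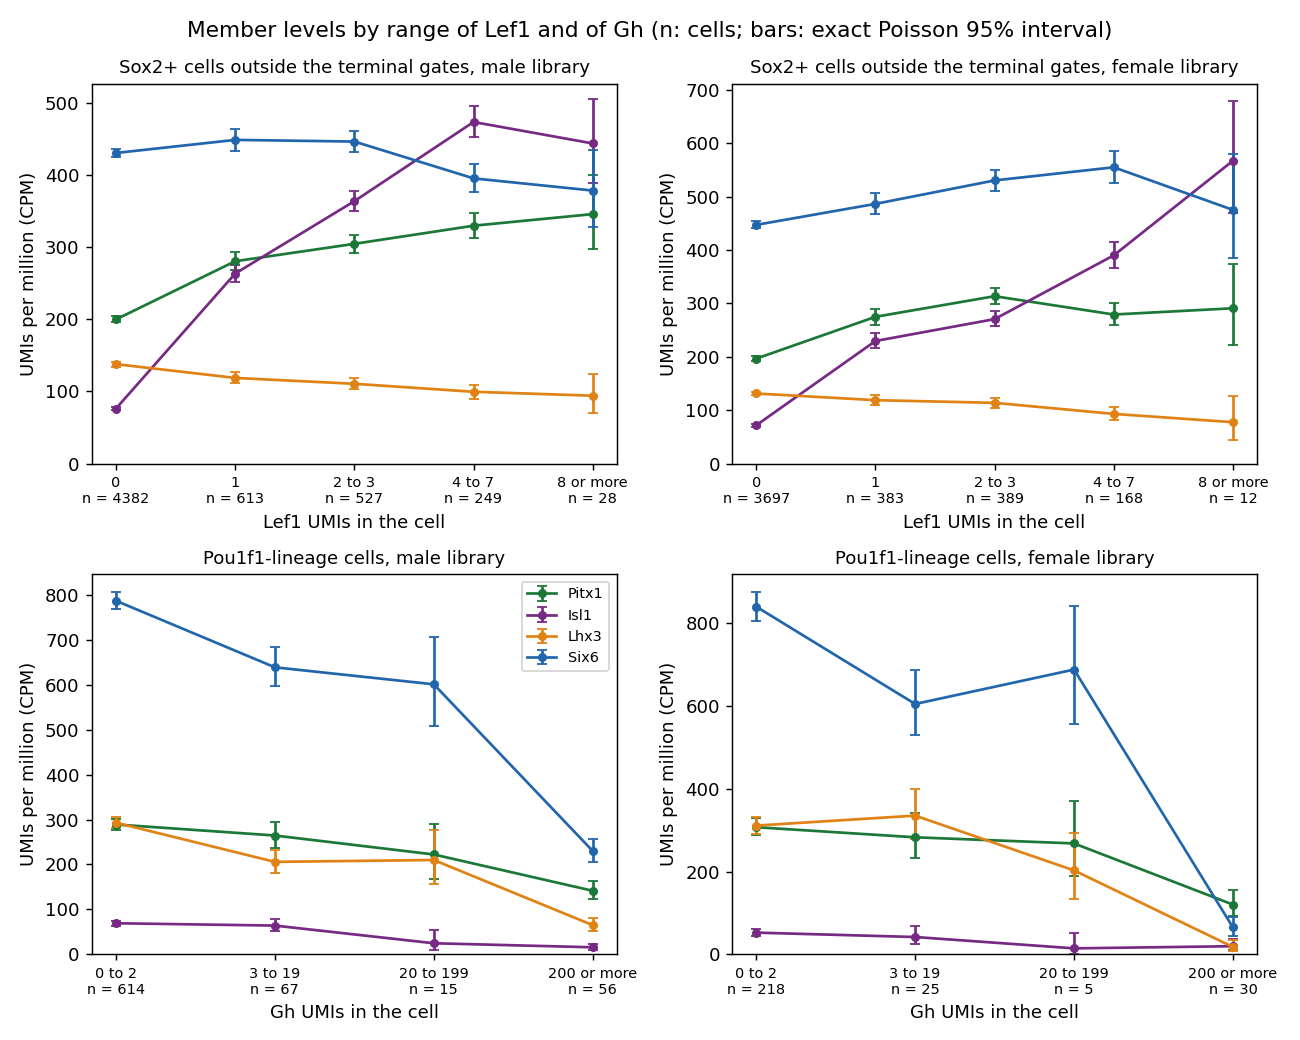
Level of Pitx1, Isl1, Lhx3 and Six6 (CPM, vertical axis from 0) in Sox2-positive cells outside the terminal gates by Lef1 UMIs (top) and in Pou1f1-lineage cells by Gh UMIs (bottom), male library left and female right, with exact Poisson 95% intervals and the number of cells under each range. Isl1 is lowest at 0 Lef1 UMIs, at 76.3 and 71.8 CPM, and Six6 and Lhx3 are lowest at 200 or more Gh UMIs.

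Between the male and the female library the 4 abundant members were close in most classes. In stem cells the ratio of male to female was 0.987 (0.948 to 1.03) for Pitx1, 1.06 (1.01 to 1.12) for Lhx3, 1.03 (1.003 to 1.06) for Six6 and 0.828 (0.768 to 0.893) for Isl1. Only Lhx4 was called there, at 3.01 (1.10 to 10.3) from 20 and 5 UMIs, where 2.71% of features were called in either direction, and the call was lost with raised gates, at 2.17, and when thinning left too few UMIs to test. In differentiating cells, gonadotrophs, Pou1f1-lineage cells and melanotrophs 0 members of 4 tested were called (background 2.37%, 3.34%, 2.84% and 5.55%). The nearest were Six6 in melanotrophs, 1.77 times higher in the female library (1.64 to 1.92), or 0.662 as male over female without hormone genes, and Lhx3 in gonadotrophs, 1.54 times higher in the female library (1.27 to 1.86), from 47 female cells. Pitx1 and Isl1 were called in mesenchymal cells, 2.21 and 4.13 times higher in the male library (3.60% of features), where the Scrublet-marked cells took 13.4% of male and 7.90% of female cells. The marking rule takes a larger share of a library with more cells, so these 2 shares cannot be compared between the libraries. Without the marked cells Pitx1 was 2.47, Lhx3 3.14 and Isl1 1.94 times higher in the male library, so that Pitx1 and Lhx3 were called and Isl1 was not.

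Of 48 cofactors and related regulators, 47 had a row of their own under the symbol listed. In differentiating cells 7 were called higher and 5 lower of 38 tested, in gonadotrophs 8 and 5 of 34, in Pou1f1-lineage cells 13 and 7 of 38, in melanotrophs 6 and 11 of 36 and in mesenchymal cells 9 and 13 of 36, to be read against the background shares above. Their median log2 ratio to stem was 0.07 in both libraries in differentiating cells, against -0.03 and -0.05 for all tested features, 0.23 and 0.20 in gonadotrophs, against 0.03 and -0.03, and -0.43 and -0.04 in melanotrophs, against -0.45 and -0.21. The named regulators follow the rule of at most 4 per class by fold. Foxl2, a forkhead factor of gonadotrophs, was 32.1 and 88.6 times stem in differentiating cells and 73.4 and 281 times in gonadotrophs.

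The LIM-only gene Lmo1, whose product competes for the LDB cofactors that LIM-homeodomain proteins need, rose from 8.49 and 5.20 CPM in stem cells to 103 and 93.0 in gonadotrophs and 74.3 and 75.3 in Pou1f1-lineage cells. Lmo2, of the same kind, rose from 0.803 and 0.697 to 19.7 and 13.5 CPM in differentiating cells. Neurod4 reached 73.2 and 127 CPM in Pou1f1-lineage cells from 0.629 and 0.232 in stem cells, and it was also called higher in differentiating cells and gonadotrophs. In Pou1f1-lineage cells the others named were Sox3 and Gata2, both at low levels. Sox3 was at 5.68 and 2.59 CPM, 12.5 and 4.29 times stem, and Gata2 at 2.32 and 7.24 CPM, 11.1 and 39.0 times stem. Melanotrophs held Tbx19, the activator of Pomc, at 45.03 and 82.5 CPM, with less Eya4, at 0.0598 and 0.103 of stem, and less Lmx1b, at 2 and 0 UMIs. In mesenchymal cells Gata2 (74.7 and 54.4 CPM), Eya2 (27.0 and 29.9) and Ldb2 (56.3 and 54.0) were higher than in stem cells and Isl2 (0.785 and 1.68) was lower.

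Genes with the pattern most like each member were sought by Pearson's r of log2(CPM + 1) over 14 levels, 7 classes in each of the 2 libraries, among 9228 features that reached 20 CPM. These levels share libraries, 1 of them is the single female pituicyte-like cell, and the r values are descriptions. Among the 3 nearest to Pitx1 were Mkrn1 (0.943) and Mrpl55 (0.923). For Lhx3 they were Ucp2 (0.946), Six6 (0.880) and Olfm1 (0.879), and for Six6 Epcam (0.957), Ucp2 (0.946) and Pnp (0.932). Isl1 lay nearest to Sem1 (0.924), Dnaja2 (0.922) and Rprm (0.920), and Lhx2 to Tbx3os2 (0.993), 1700003F12Rik (0.989) and Nkx2-1 (0.988), a pattern set by the male pituicyte-like level. Hesx1 and Lhx4 did not reach 20 CPM, and their nearest genes, Cyp39a1, Ndrg1 and Krt19 at up to 0.838 and Bcas2, Ddx39b and Chrac1 at up to 0.699, rest on few UMIs. Over 12 levels, without the pituicyte-like class, Pnp stayed among the 3 nearest to Six6 (0.966) and Cyp39a1 among those to Hesx1, while the other named genes gave way to others. Between members r was 0.880 for Lhx3 and Six6, 0.871 for Pitx1 and Isl1, 0.866 for Pitx1 and Lhx3, and 0.430 for Isl1 and Six6.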

How the data were processed

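The UMI counts of the 2 libraries were made by the authors with Cell Ranger 3.0.2, per the file headers, on mm10 with an eGFP sequence, and deposited as raw counts per gene and barcode. Notes of the submitters name R 3.6.0 and Seurat 3 and 4. The labels name more than 1 chemistry version, and whether doublets were removed before deposit is not given in the sources used here. Of 10569 male and 5796 female barcodes, those with at least 50 genes and mitochondrial shares up to the mean plus 3 SD (20.4% and 26.1%) were kept. The deposited totals were 106039887 and 62897759 UMIs.

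Gates on raw UMIs were as follows. Gonadotrophs had at least 2 of Gnrhr, Nr5a1, Lhb, Fshb (1 UMI each) and Cga (10), Pou1f1-lineage cells 2 of Pou1f1, melanotrophs 20 of Pomc with Pax7 or 2 of Pcsk2, and mesenchymal cells 3 of Dcn with 5 of Col1a1, Col1a2, Col3a1 and Lum together. Subclasses used Ednrb (2), Aldh1a2 (3), Shh, Cdkn1a (2), Neurod1 (2), Cga (3), Gh (20) and Prl (20). CPM, ratios and exact intervals were computed with numpy 2.4.6 and scipy 1.17.1 in Python 3.11.15, and checked on simulated counts. Cells were thinned with seed 1. Scrublet scores (scanpy 1.11.5) were ranked and 0.8% per 1000 cells marked as likely doublets, 867 male and 261 female, which stayed in except where stated. Named genes were the members, the gate and check markers, at most 4 called regulators per class by fold, and the 3 genes nearest to each member. Some genes that this rule takes in are not reported here. Members, gates and lists were chosen with earlier results of these data known. Positions are from GENCODE vM21. Genes on the opposite strand overlap exons of Pitx1, Lhx3, Lhx2 and Six6, and Gm28760 overlaps Pitx1 on its own strand, with 498 and 119 UMIs. Alternatives were raised gates, Scrublet-marked cells left out, at least 2000 genes per cell, all barcodes, each cell's own CPM averaged, thinning, shared barcodes left out, and folds of 1.5 and 3. Chosen after seeing the data were the Nkx2-1 gate, the Lef1 and Gh ranges, 12 levels for likeness, and totals without hormone genes.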

Additional observations from a re-analysis of the deposited data

Results flagged for a closer look

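For 6 ratios the male and female libraries lay on opposite sides of 1, each with a 95% counting interval that left out 1. None of these differences was tested, since each sex is 1 library of pooled animals, and no cause was tested. How many of all features met this rule is not given, so the 6 ratios cannot be set against a background. The intervals cover counting error only, so a ratio close to 1 can meet the rule where UMIs are many.

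Six6 in differentiating over stem cells was 0.968 (0.938 to 0.999) in male and 1.265 (1.22 to 1.31) in female cells, and with each cell weighted equally the male value was no longer below 1. Six6 in melanotrophs over stem cells was 0.720 (0.682 to 0.760) in male and 1.32 (1.24 to 1.40) in female cells, and without hormone genes in the totals the male value, 0.972, had an interval that took in 1. Lhx3 in gonadotrophs over stem cells was 0.871 (0.809 to 0.937) in male and 1.42 (1.18 to 1.70) in female cells, and within the lineage Lhx3 in maturing gonadotrophs over early precursors was 0.677 (0.611 to 0.751) and 1.59 (1.17 to 2.13). The female Lhx3 values rest on 47 gonadotrophs, 24 of them maturing. Isl1 in Pou1f1-lineage over stem cells was 1.21 (1.10 to 1.32) in male and 0.748 (0.635 to 0.875) in female cells, but the male ratio was 0.976 with each cell weighted equally and 0.922 after thinning, below 1 in both. Isl1 in cycling over non-cycling stem cells was 0.835 (0.718 to 0.974) in male and 1.24 (1.07 to 1.45) in female cells.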

How the results depend on the processing

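Of 50 ratios to stem cells, 0 called ones changed direction under any alternative listed with the processing, and 0 moved beyond their counting interval with a minimum of 2000 genes per cell, with all deposited barcodes or without shared barcodes. Raised gates moved 17, leaving out Scrublet-marked cells 13, equal weights for cells 18 and thinning 20. The members called changed as follows, and the causes were not tested. The background shares above are for a fold of 2 with the main gates. No such share is given for the alternatives, so the counts below cannot be set against all features. With raised gates 1 member was higher in gonadotrophs (Isl1), 0 differed between the libraries in stem cells and 1 in gonadotrophs (Lhx3). In mesenchymal cells Isl1 joined the 3 lower members without Scrublet-marked cells, with equal weights, after thinning and at a fold of 1.5. Among library differences there, Lhx3 took the place of Isl1 without Scrublet-marked cells and joined Pitx1 and Isl1 with equal weights and at a fold of 1.5. With equal weights 1 was higher in Pou1f1-lineage cells (Lhx3) and 3 were lower in melanotrophs (Pitx1, Hesx1, Isl1). After thinning 0 were lower in differentiating cells, where Hesx1 had too few UMIs left, 1 was higher in Pou1f1-lineage cells (Lhx3), 2 were lower in melanotrophs (Pitx1, Isl1) and 0 differed between the libraries in stem cells. Without hormone genes 2 were lower in melanotrophs (Hesx1, Isl1). At a fold of 1.5, 2 were higher in differentiating cells (Pitx1, Isl1) and 2 in Pou1f1-lineage cells (Lhx3, Six6), and library differences numbered 2 in stem cells (Lhx4, Hesx1), 1 in gonadotrophs (Lhx3) and 1 in melanotrophs (Six6). At a fold of 3, 1 was higher in gonadotrophs (Isl1), 2 were lower in melanotrophs (Hesx1, Isl1) and 1 differed between the libraries in mesenchymal cells (Isl1). Of 84 shares, 51 moved beyond their interval without thinning. Depth limits Hesx1, Lhx4 and Lhx2, and all intervals cover counting error only. No paired analysis was possible because each sex is 1 library.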

Other observations

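Cells that no gate took, 5424 male and 2467 female, were not without the members. They held 258 CPM of Pitx1 in male and 225 in female cells, 183 and 124 of Isl1, 137 and 134 of Lhx3 and 414 and 472 of Six6. The Pitx1 and Isl1 levels lay between those of stem and differentiating cells in both libraries. Early gonadotroph precursors made up 401 of these male cells and 64 of these female cells. The median depth of all cells that no gate took differed, at 2456 UMIs for male cells and 8806 for female cells.

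At 5000 UMIs per cell, UMIs of Pitx1, Lhx3, Isl1 and Six6 together were seen in 28.5% of male and 21.1% of female early gonadotroph precursors, 18.3% and 16.4% of differentiating cells and 4.43% and 5.03% of stem cells. None of the 4 was seen in 2.59% and 3.28% of stem cells and in 83.9% and 90.6% of mesenchymal cells.

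Of 59 male cells with a Lhx2 UMI, 13 held at least 2, and 9 of those held Nkx2-1 and 10 held Rax. The 13 male cells with Nkx2-1 held 45 of the 98 Lhx2 UMIs.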
